A study of Mus musculus with 12 samples.

Results

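The 10 genes described here belong to the circadian clock of MC38 cells: the activator Arntl (also called Bmal1), the repressors Per1, Per2, Per3 and Cry1, the nuclear receptors Nr1d1 and Nr1d2 (REV-ERB alpha and beta), the repressor Bhlhe40 (DEC1), and the output factors Dbp and Tef. They are 10 of the 54532 genes in the deposited table, and all 10 were expressed highly enough to enter the fit across 13012 genes. They were chosen by name from clock genes whose FPKM levels in the 4 groups of these same libraries were already known. Their levels and group differences are therefore given as a description with no test. MC38 is a mouse colorectal cancer cell line, and RNA was sequenced from 12 cultures in 4 groups of 3. The groups were untreated control, nintedanib at 3 µM for 24 hours, X-rays at 8 Gy with 24 hours given as the time, and both treatments together with the same doses and times. The labels give no time and no vehicle for the controls, and they state that the whole experiment was repeated independently to give the 3 libraries of a group. All groups are the same unmodified line grown in culture, with no host cells. Nintedanib is a kinase inhibitor of growth factor receptors (PDGF, FGF and VEGF receptors).

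The mammalian clock is a loop of transcription factors with a period near that of a day, and most cells in culture run it, each on its own phase unless a stimulus aligns them. ARNTL pairs with CLOCK and activates genes through E-box elements, among them the Per, Cry, Nr1d and Dbp genes, and the PER and CRY proteins feed back to block ARNTL and CLOCK. The NR1D proteins repress Arntl and Nfil3 through ROR response elements (RRE), which the ROR receptors activate. DBP and TEF, with their relative HLF, are PAR bZIP factors that activate genes through D-box elements, and NFIL3 represses the same elements. Every treated library came from 1 time point, so a shift of phase, a change of amplitude and a change of mean level cannot be told apart here. Nor can a change in every cell be told apart from a change in some of them.

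Promoter windows from RefSeq (GRCm38.p6, 250 bases before to 50 after a start site) were found for 8 of the 10 genes, and not for Per2 and Bhlhe40. Both strands were searched for the E-box CACGTG, its variant the E'-box CACGTT, the D-box TTATGNAA, and the RRE core TNGGTCA. The E-box was in 7.15% of all 32851 windows, the E'-box in 4.68%, the D-box in 3.38% and the RRE core in 10.96%. Of the 8 genes, 3 had an E-box (Tef, Per1, Cry1), 2 an E'-box (Nr1d1, Cry1), 2 a D-box (Per1, Per3) and 3 an RRE core (Arntl, Per3, Tef, the last in its second window only). The windows of Dbp and Nr1d2 held none of the 4 in these letters. Some genes have more than 1 window. The second Arntl window held a further RRE core, TAGGTCA, at base 31 after the start site, which is not shown. Any base was allowed at N, so an RRE core here means only a match to these letters. The matches shown for Arntl have T and C at N, those of Per3 and Tef have T, and TAGGTCA has A. Whether any of these matches is an element bound by a REV-ERB or ROR receptor was not tested. The stretches below lie upstream of the start site and show how the elements are arranged in the genes whose levels are given next. Matches are in capitals, read in the direction of the gene. A match on the other strand appears as its reverse complement, and none overlaps another.
Arntl, 2 RRE cores, chr7:113207245-113207310, plus strand: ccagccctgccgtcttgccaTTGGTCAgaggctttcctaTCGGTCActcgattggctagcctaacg
Cry1, an E'-box and an E-box, chr10:85185089-85185153, minus strand: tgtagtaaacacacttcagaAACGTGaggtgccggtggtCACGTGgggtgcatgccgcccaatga
Per1, an E-box and a D-box, chr11:69098763-69098948, plus strand: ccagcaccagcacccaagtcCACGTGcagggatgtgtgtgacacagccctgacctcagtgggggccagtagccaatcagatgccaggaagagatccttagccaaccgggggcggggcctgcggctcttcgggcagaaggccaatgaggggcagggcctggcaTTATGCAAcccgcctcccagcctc
Per3, 2 D-boxes and an RRE core, chr4:151044757-151044890, minus strand: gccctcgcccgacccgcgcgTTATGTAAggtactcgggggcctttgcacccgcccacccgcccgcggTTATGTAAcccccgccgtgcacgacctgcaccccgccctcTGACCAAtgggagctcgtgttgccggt
Nr1d1, an E'-box, chr11:98775380-98775425, minus strand: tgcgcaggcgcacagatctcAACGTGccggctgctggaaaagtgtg
Tef, an E-box, chr15:81802526-81802571, plus strand: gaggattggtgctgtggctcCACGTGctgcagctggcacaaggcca

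Libraries held 16103528 to 18196615 fragments, and 12045 to 12373 genes reached 1 FPKM (fragment counts per kilobase of gene model, scaled for depth). Of the markers used to check the line, the mesenchymal gene Vim was at 554 FPKM on average, the epithelial genes Cdh1 and Krt19 reached 8.73 and 4.81 FPKM, and the epithelial gene Epcam and the leukocyte gene Cd3e were listed at 0 in all 12 libraries. The leukocyte gene Ptprc reached at most 0.0292 FPKM and the macrophage gene Adgre1 at most 0.0172 FPKM. The myeloid gene Lyz2 was at 0.208 FPKM on average in controls, 0.829 with nintedanib, 0.637 after radiation and 1.12 with both, and every treated library was above every control. The endothelial gene Tek was at 0.968, 1.32, 0.785 and 1.48 FPKM in the same order, while the endothelial genes Pecam1 and Cdh5 reached at most 0.447 and 0.227 FPKM. Cdh1 was at 4.49, 5.32, 5.69 and 8.26 FPKM and Krt19 at 0.842, 2.43, 1.09 and 3.58 FPKM. The part of these genes' cell types in the clock gene values was not tested. The colonic factor Cdx2 did not exceed 0.0473 FPKM. The further epithelial genes Krt8, Krt18, Krt20, Vil1 and Cldn7 reached at most 0.601, 0.0838, 0.0317, 0.139 and 0.238 FPKM. The third nintedanib library stood apart in short RNAs (miRNA, snoRNA, snRNA and similar classes), at 0.0161% of fragments, where the remaining 11 libraries had 0.0858 to 0.197%. Differences that involve it are given without it for the genes they moved most.

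Arntl, the activator without which the loop does not run, had the largest fold change against control of the 10 genes (chromosome 7, 113207465 to 113314126 in GRCm38). It was at 7.34, 8.40 and 8.03 FPKM in the 3 controls and at 8.33, 7.08 and 7.37 FPKM after radiation. With nintedanib it was at 2.05, 2.25 and 2.33 FPKM, and with both treatments at 3.16, 3.38 and 2.64 FPKM. All 6 libraries given the drug were below all 6 that were not, while control and radiation libraries overlapped. The control mean was 3.59 times the nintedanib mean (log2 fold change -1.47, SE 0.0870) and 2.59 times the mean with both treatments (-1.14). Under the drug, the 3 irradiated libraries were above the 3 unirradiated ones (log2 fold change 0.34). These levels rested on 275 to 1093 fragments per library.

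**Figure D1:**
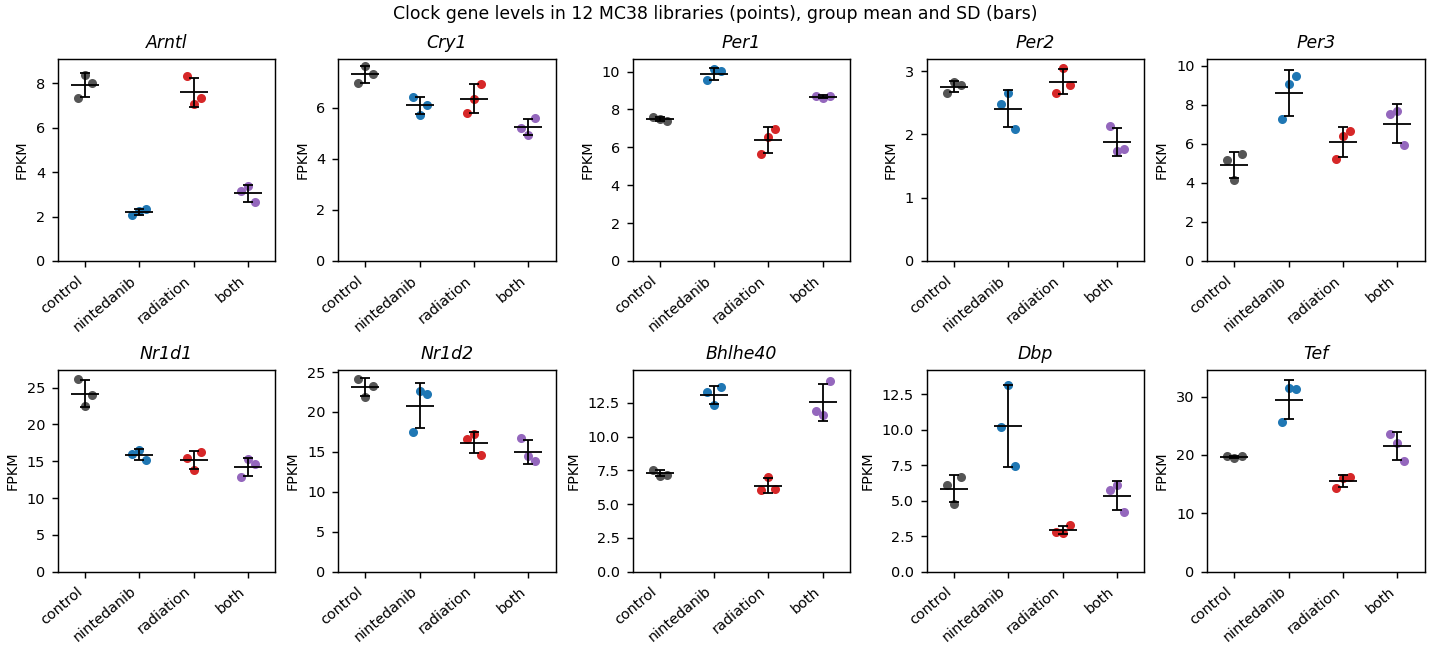
FPKM (vertical axes, starting at 0) of the 10 clock genes in the 4 groups, with 1 point per library and the group mean and SD (n = 3) as bars. Arntl lies between 2.05 and 3.38 FPKM in the 6 libraries with nintedanib and between 7.08 and 8.40 FPKM in the other 6, while Dbp is lowest in the 3 libraries given radiation alone.

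The repressors of the loop did not move as a block. Per1 (chromosome 11, 69095217 to 69109960), a PER gene that signals such as cAMP induce directly, was at 7.61, 7.51 and 7.38 FPKM in controls. It was at 9.53, 10.1 and 10.02 FPKM with nintedanib, at 5.63, 6.56 and 6.98 FPKM after radiation, and at 8.73, 8.59 and 8.70 FPKM with both. The 4 groups of Per1 did not overlap at all: nintedanib was highest, then both treatments, control and radiation. The distances were small, with a nintedanib mean 1.32 times and a radiation mean 0.852 times the control mean (log2 fold changes 0.36 and -0.21, SE 0.0679).

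Per3 (chromosome 4, 151003652 to 151044665), the PER gene least needed for the rhythm itself, showed a larger difference with the drug. It was at 5.15, 4.14 and 5.46 FPKM in controls and at 7.27, 9.08 and 9.47 FPKM with nintedanib, and these groups did not overlap. Radiation libraries, at 5.25, 6.39 and 6.67 FPKM, overlapped with the controls. With both treatments Per3 was at 7.53, 7.68 and 5.92 FPKM, which overlapped with nintedanib and with radiation but lay above the controls. The nintedanib mean was 1.75 times the control mean (log2 fold change 0.70, SE 0.129).

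Per2 (chromosome 1, 91415982 to 91459324), the PER gene on which the rhythm of many tissues rests, had the lowest mean of the 10 over all 12 libraries, at 1.74 to 3.05 FPKM, though the Arntl mean was lower with nintedanib. It was at 2.65, 2.82 and 2.79 FPKM in controls, at 2.48, 2.66 and 2.08 FPKM with nintedanib and at 2.66, 3.05 and 2.78 FPKM after radiation. Controls overlapped with nintedanib and with radiation. The nintedanib libraries lay narrowly below those of radiation (2.655 against 2.662 FPKM). The combination, at 2.14, 1.74 and 1.77 FPKM, lay below controls and below radiation and overlapped with nintedanib (log2 fold change -0.38 against control, SE 0.0890). Per2 rested on 182 to 334 fragments per library.

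Cry1 (chromosome 10, 85131700 to 85185064), the stronger of the cryptochrome repressors, was lower under each treatment. It was at 6.98, 7.63 and 7.33 FPKM in controls, 6.43, 5.73 and 6.12 FPKM with nintedanib, 5.78, 6.36 and 6.94 FPKM after radiation, and 5.23, 4.93 and 5.58 FPKM with both. Each treated group lay below the controls, narrowly so in the case of radiation (6.94 against 6.98 FPKM), and the combination lay below both single treatments. The means were 0.833, 0.870 and 0.718 times the control mean (log2 fold changes -0.23, -0.18 and -0.41, SE 0.0736).

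The REV-ERB genes, which encode the repressors of Arntl, had the highest control means of the 10 genes on the FPKM scale, ahead of Tef. Nr1d1 (chromosome 11, 98767932 to 98775333) was at 26.1, 22.4 and 24.1 FPKM in controls. It was at 15.98, 16.6 and 15.2 FPKM with nintedanib, 15.4, 13.8 and 16.3 FPKM after radiation, and 12.9, 15.3 and 14.6 FPKM with both. All 9 treated libraries lay below all controls, and no neighbouring pair among the treated groups was separated. The log2 fold changes against control were -0.58, -0.64 and -0.72 (SE 0.0841). Nr1d1 shares 263 of its 3077 exon bases with Thra on the opposite strand, and the strand setting of the counting is not known, so reads there cannot be told apart. Thra was at 7.19 ± 0.0143 FPKM in controls, 7.54 ± 0.805 with nintedanib, 8.75 ± 0.688 after radiation and 8.58 ± 1.07 with both (SD, n = 3), and its part in the Nr1d1 values was not tested.

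Nr1d2 (chromosome 14, 18204054 to 18239127) followed radiation more than the drug. It was at 24.1, 21.9 and 23.3 FPKM in controls, 17.5, 22.6 and 22.2 FPKM with nintedanib, 16.6, 17.2 and 14.7 FPKM after radiation, and 16.7, 14.5 and 13.8 FPKM with both. The 6 irradiated libraries were below the other 6, and nintedanib libraries overlapped with the controls. The log2 fold changes against control were -0.16, -0.49 and -0.59 (SE 0.104).

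Bhlhe40 (chromosome 6, 108660629 to 108666925), a helix-loop-helix factor that binds E-boxes and represses from them, was higher in every library with the drug. It was at 7.53, 7.11 and 7.19 FPKM in controls, 13.3, 12.4 and 13.7 FPKM with nintedanib, 6.03, 7.00 and 6.11 FPKM after radiation, and 11.9, 11.6 and 14.1 FPKM with both. Nintedanib and combination libraries overlapped with each other and stood 1.80 and 1.72 times above the control mean (log2 fold changes 0.77 and 0.71, SE 0.0813). Arntl and Bhlhe40 thus separated the 6 drug libraries from the other 6 in opposite directions.

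Dbp and Tef, the PAR bZIP output factors, showed the opposite sign under the 2 treatments. Dbp (chromosome 7, 45705088 to 45710203), a direct E-box target whose RNA swings widely over the day in many tissues, was at 6.14, 4.77 and 6.67 FPKM in controls. It was at 10.2, 13.2 and 7.45 FPKM with nintedanib, 2.82, 2.75 and 3.26 FPKM after radiation, and 5.76, 6.10 and 4.23 FPKM with both. Nintedanib libraries were above, and radiation libraries below, all others, while the combination overlapped with the controls. The nintedanib mean was 1.75 times, and the radiation mean 0.503 times, the control mean (log2 fold changes 0.70 and -0.79, SE 0.180), and with both treatments it was 0.915 times (-0.11). Of the 10 genes Dbp had the widest relative spread within a group, an SD of 27.9% of the mean with nintedanib. Its lowest nintedanib value is from the third library; without it the log2 fold change of Dbp was 0.89 (SE 0.161). For the other 9 genes, leaving that library out moved the nintedanib fold change less, as for Per2 (from -0.14 to -0.07) and Per3 (from 0.70 to 0.63).

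Dbp shares 539 of its 2993 exon bases with Sphk2 on the opposite strand. Sphk2 was at 8.88 ± 1.46 FPKM in controls, 4.49 ± 0.515 with nintedanib, 7.42 ± 0.772 after radiation and 5.14 ± 0.425 with both (SD, n = 3), so it was lower under nintedanib, where Dbp was higher. The part of Sphk2 in the Dbp values was not tested in any group.

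Tef (chromosome 15, 81802421 to 81826863) was like Dbp highest with nintedanib and lowest after radiation, at a higher level and with smaller steps. Its combination mean was 1.09 times the control mean, where that of Dbp was 0.915 times. It was at 19.7, 19.4 and 19.9 FPKM in controls, 25.7, 31.5 and 31.3 FPKM with nintedanib, 14.3, 16.1 and 16.2 FPKM after radiation, and 23.6, 22.0 and 19.0 FPKM with both. Nintedanib libraries were again above all others and radiation libraries below all others, and only control and combination overlapped. The nintedanib mean was 1.50 times and the radiation mean 0.790 times the control mean (log2 fold changes 0.55 and -0.32, SE 0.0958). The remaining PAR bZIP gene, Hlf, did not exceed 0.112 FPKM in any library.

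**Figure D2:**
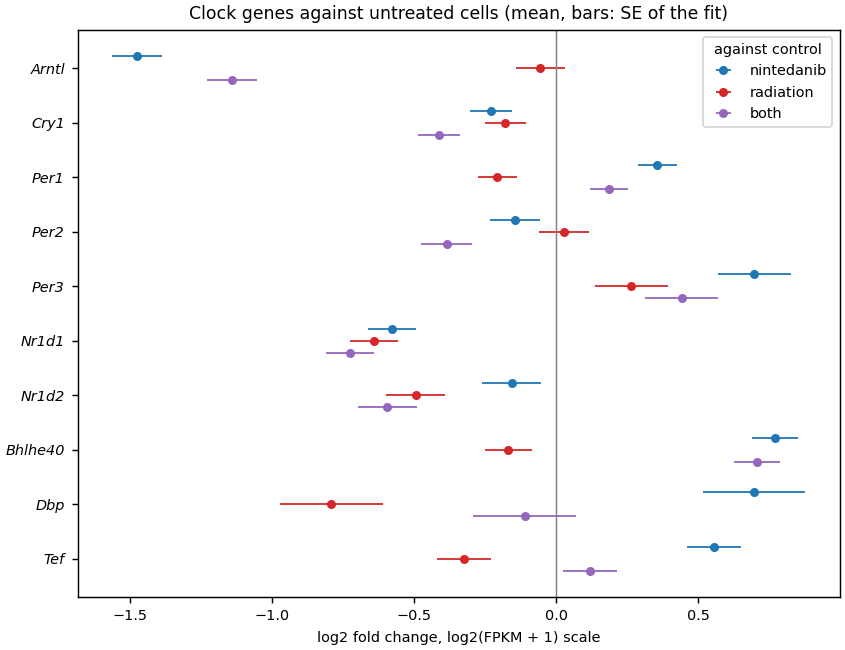
Log2 fold change against control (horizontal axis, on the log2(FPKM + 1) scale) of the 10 clock genes under nintedanib, radiation and both, with the SE of the fit as bars. Dbp lies at 0.70 with nintedanib, -0.79 with radiation and -0.11 with both, and Arntl at -1.47, -0.06 and -1.14.

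Calls used an adjusted p under 0.05 (limma, Benjamini-Hochberg over 13012 genes). With nintedanib against control the threshold was passed by 8 of the 10, with Dbp, Tef, Per1, Per3 and Bhlhe40 higher and Arntl, Nr1d1 and Cry1 lower, and by 41.6% of all genes. Groups did not overlap for the same number, 8, and for 51.1% of all genes. After radiation 4 of the 10 passed, all lower (Dbp, Tef, Nr1d1, Nr1d2), against 17.9% of all genes, and 7 had groups that did not overlap, against 41.8%. With both treatments 8 passed, 3 higher and 5 lower, against 47.2%, and 8 did not overlap, against 56.8%. Nothing is read from these shares, since these contrasts were known when the genes were chosen. The median log2 fold change of the 10 was 0.11 with nintedanib, -0.19 with radiation and -0.25 with both, and that of all genes tested was -0.02, -0.04 and -0.03. The 3 comparisons share the control libraries. With the FPKM rescaled to a common sum, 2 of the 10 passed after radiation, and Nr1d2 and Tef no longer did. The radiation call of Tef was lost in 11 of 13 other settings, among them the omission of any 1 control or radiation library. That of Dbp was lost without the third control or the second radiation library, each of which left 2 of the 10 called. The Cry1 call with nintedanib was lost in 7 of 13 settings, among them without the second or the third control and without the second or the third nintedanib library. With both treatments the Per1 call was lost in 8 of 13, among them without any 1 control or combination library, and the Per3 call without the second control, the first combination or the second combination library.

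Within irradiated cells, where the combination is compared with radiation alone, Arntl and Cry1 were again lower and Bhlhe40, Dbp, Tef and Per1 again higher with the drug. Log2 fold changes there were -1.08 for Arntl, -0.23 for Cry1, 0.87 for Bhlhe40, 0.68 for Dbp, 0.44 for Tef and 0.39 for Per1. Per2 was at -0.41 in this comparison, against -0.14 without radiation. Nr1d1 was at -0.08, against -0.58 without radiation, and Per3 at 0.18, against 0.70. Of the 10 genes 7 passed the threshold, 4 higher and 3 lower, against 34.4% of all genes. The Dbp call was lost without the second combination library, and the Cry1 call in 7 of 13 other settings, among them without the second or the third radiation and the first or the second combination library.

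Within nintedanib-treated cells, where the combination is compared with the drug alone, the irradiated libraries had less Dbp (log2 fold change -0.81), Tef (-0.44) and Nr1d2 (-0.44), and more Arntl (0.34). These 4 of the 10 passed the threshold, against 5.55% of all genes. None of the 4 did so when the fit held only the 2 groups compared, or with no filter on low values, or with the replicate number as a block. Leaving out 1 library left 0 to 3 of the 10 called, with 0 without the second nintedanib or the second combination library, 1 without the third nintedanib or the third combination library and 2 without the first nintedanib library. Without the third nintedanib library the Tef, Nr1d2 and Arntl calls were lost, at log2 fold changes of -0.39, -0.39 and 0.36, and Dbp was at -0.998 (SE 0.161).

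**Figure D3:**
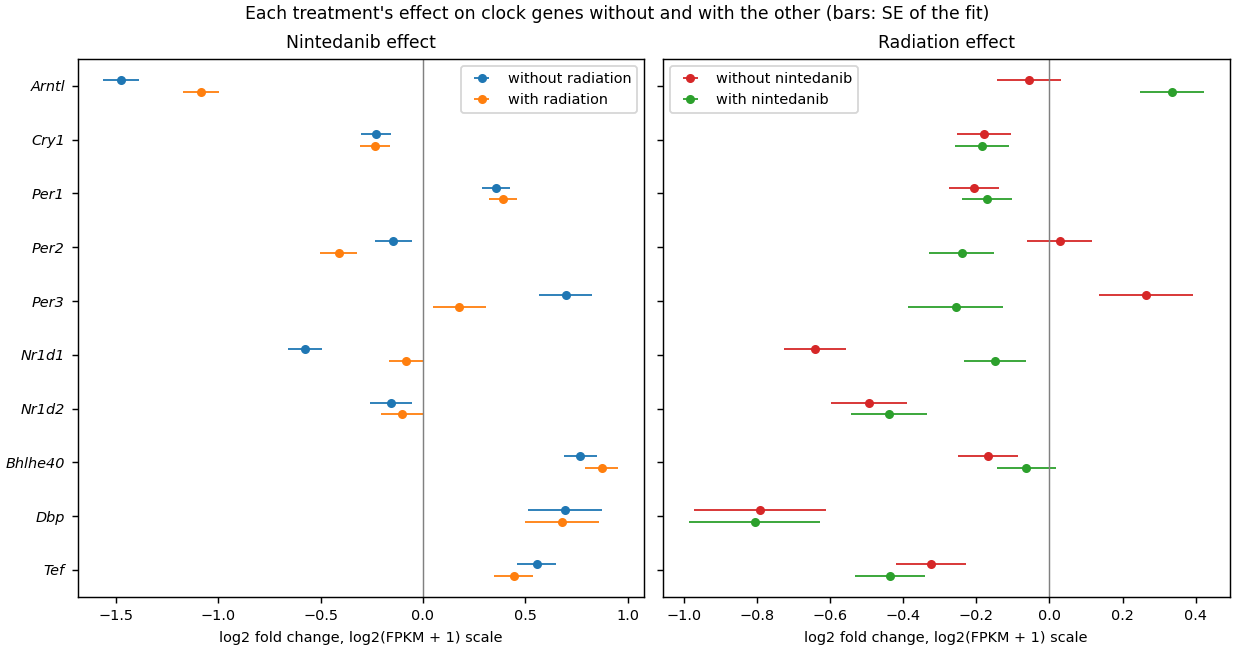
Log2 fold changes (horizontal axes, log2(FPKM + 1) scale, bars: SE of the fit) of the 10 clock genes for nintedanib without and with radiation (left) and for radiation without and with nintedanib (right). For Dbp the nintedanib effect is 0.70 without and 0.68 with radiation, and the radiation effect -0.79 and -0.81, while for Nr1d1 each effect is nearer to 0 when the other treatment is present.

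On the log2 scale the 2 single effects summed to the effect of both treatments for some of the genes. For Dbp the sum was -0.09 and the combination -0.11, for Cry1 both were -0.41, and for Per1 they were 0.15 and 0.19. The widest gaps were in Per3 (sum 0.96, combination 0.44), Nr1d1 (-1.22 and -0.72) and Arntl (-1.53 and -1.14). The gap, which is the interaction term of the fit, was -0.52 (SE 0.183) for Per3, 0.49 (SE 0.119) for Nr1d1 and 0.39 (SE 0.123) for Arntl. None of the 10 passed the limma threshold for the interaction, and 0.00769% of all genes, a single one, did. At an unadjusted p under 0.05 the interaction held 3 of the 10 and 12.9% of all genes. By voom on recovered fragments none of the 10 passed either.

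Other clock genes were taken from lists that do not hold the 10: 11 further core clock genes, 12 modifiers of clock proteins, 15 outputs and 14 genes of the glucocorticoid and cAMP inputs to the clock. Of the 50 distinct genes found in the table, 42 were tested. With nintedanib 8 of the 42 rose and 15 fell, after radiation 3 rose and 12 fell, and with both 8 rose and 16 fell (limma, adjusted p under 0.05). The shares were 54.8%, 35.7% and 57.1%, beside 41.6%, 17.9% and 47.2% of all genes. Nothing is read from these shares either, since these lists too were chosen with earlier results of these data known. Adjusted p-values given below for the listed genes describe the same data and are no independent support. The median log2 fold changes of the 42 were -0.09, -0.10 and -0.13. After radiation the share of the genes called over the whole table that were higher was 44.8%, and it was 69.7% after rescaling to a common sum. Of the 42, 3 rose and 8 fell under that scaling. Without the second radiation library 9 of the 42 were called after radiation.

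Among the further core clock genes Nfil3 (chromosome 13, 52967209 to 52981073), the D-box repressor and like Arntl a target of the REV-ERB proteins, had the largest change on the log2(FPKM + 1) scale. It was at 19.9, 20.1 and 21.0 FPKM in controls and 20.01, 19.0 and 20.4 FPKM after radiation. It was at 7.42, 6.20 and 8.50 FPKM with nintedanib and 9.33, 10.9 and 10.9 FPKM with both, so that the 6 drug libraries were below the other 6, as they were for Arntl. Nfil3 fell with nintedanib (log2 fold change -1.36, SE 0.0950, limma adjusted p = 1.59e-06) and with both treatments (-0.91, adjusted p = 1.97e-05). As a ratio of means the control was 2.76 times the nintedanib level. With both treatments it was higher than with the drug alone (0.45, adjusted p = 0.0223); that call was lost in 5 of 13 other settings, among them without the second nintedanib library and without the second or the third combination library.

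Ciart (chromosome 3, 95878503 to 95882251), an E-box target that represses ARNTL and CLOCK, was at 6.55, 5.96 and 5.74 FPKM in controls, 2.83, 2.87 and 2.03 FPKM with nintedanib, 3.14, 3.17 and 3.60 FPKM after radiation, and 1.45, 1.91 and 2.43 FPKM with both. All 9 treated libraries were below the controls, as for Nr1d1. Ciart fell in each comparison with control (log2 fold changes -0.99, -0.72 and -1.29, SE 0.128, limma adjusted p = 0.000107, 0.00405 and 1.42e-05). Its control mean was 3.15 times its mean with both treatments, a larger ratio than that of Nfil3.

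Bhlhe41 (chromosome 6, 145858243 to 145865558), the DEC2 relative of Bhlhe40, was at 2.69 ± 0.429 FPKM in controls and rose with nintedanib to 4.21 ± 0.533 FPKM (SD, n = 3; 0.50 on the log2 scale, limma adjusted p = 0.00347). After radiation it fell to 1.50 ± 0.0959 FPKM (-0.55, adjusted p = 0.00673), and with both treatments it was at 3.27 ± 0.432 FPKM (0.21, adjusted p = 0.131). Cry2, the other cryptochrome, fell with nintedanib from 7.89 ± 0.704 to 6.02 ± 0.294 FPKM (-0.34, adjusted p = 0.0178) and with both to 5.09 ± 0.0919 FPKM (-0.54, adjusted p = 0.000993). The Cry2 call with nintedanib was lost without the second control library or the third nintedanib library (adjusted p up to 0.0723 over 13 other settings).

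Clock, the partner of ARNTL, was at 7.98 ± 0.709 FPKM in controls, 8.17 ± 0.834 with nintedanib, 8.98 ± 0.185 after radiation and 7.36 ± 1.18 with both (SD, n = 3), and passed the threshold in none of the 3 comparisons with control (limma adjusted p = 0.851, 0.330 and 0.410). Arntl2, the paralogue of Arntl, fell with both treatments, from 4.49 ± 0.258 to 3.50 ± 0.405 FPKM (-0.29, adjusted p = 0.0163); the call was lost after rescaling to a common sum, without the first control library and without the third combination library. The CLOCK paralogue Npas2 (at most 0.290 FPKM) and the RRE activators Rora (0.173) and Rorb (0.0254) were too low to be tested. None of the 6 core genes tested passed for the interaction of drug and radiation, nor did any of the 42 (10 of the 42 at an unadjusted p under 0.05, and 0 by voom on recovered fragments).

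**Figure D4:**
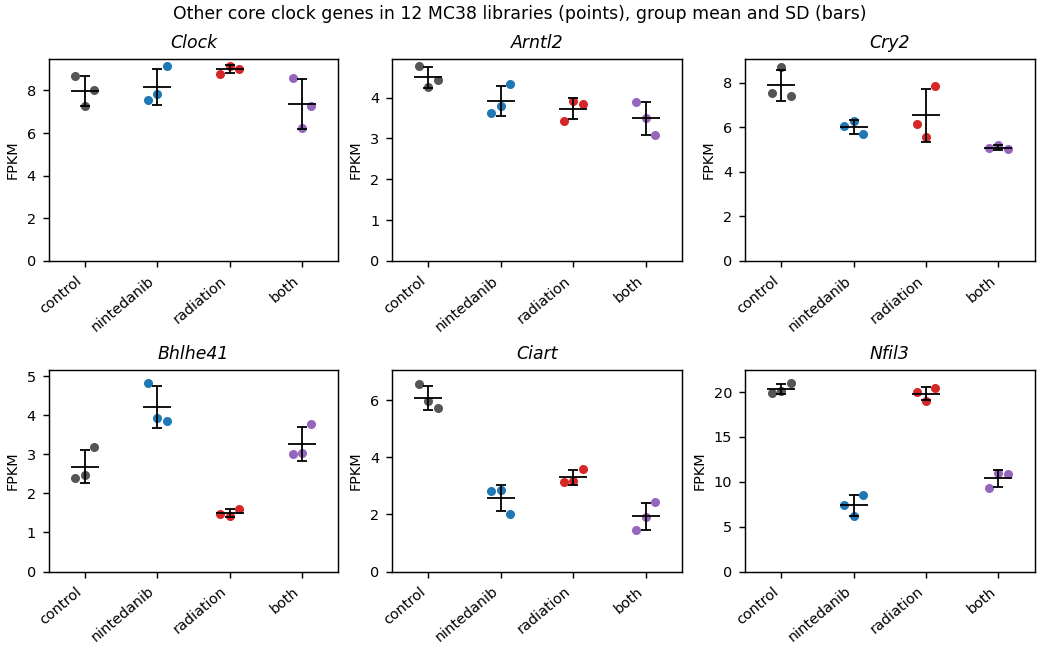
FPKM (vertical axes, starting at 0) of the 6 further core clock genes that were tested, with 1 point per library and the group mean and SD (n = 3) as bars. Nfil3 lies between 6.20 and 10.9 FPKM in the 6 libraries with nintedanib and between 19.0 and 21.0 FPKM in the other 6, and Ciart is highest in the 3 controls.

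Of 12 modifiers of clock proteins, 3 rose and 5 fell with nintedanib, 2 rose and 2 fell after radiation, and 3 rose and 4 fell with both. Usp2, a deubiquitinase that is itself a rhythmic clock target, rose in all 3 comparisons, from 2.48 ± 0.114 FPKM to 5.16 ± 0.278, 4.92 ± 0.0289 and 6.12 ± 0.334 FPKM (SD, n = 3; log2 fold changes 0.82, 0.77 and 1.03, limma adjusted p = 2.46e-06, 6.97e-05 and 5.04e-07). The kinase genes Csnk1a1 (-0.52, adjusted p = 3.73e-05) and Gsk3b (-0.40, 0.00165) and the ubiquitin ligase gene Fbxw11 (-0.23, 0.00827) fell with nintedanib by limma. Timeless, which also acts at replication forks, fell with nintedanib (-0.45, limma adjusted p = 0.01005) and rose after radiation (0.47, 0.0217). The Fbxw11 call was lost after rescaling to a common sum and by voom. The Timeless call after radiation was lost in 5 of 13 other settings, 4 of them the omission of the first or the third control or of the second or the third radiation library.

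Of 13 outputs tested, 1 rose and 5 fell with nintedanib, 1 rose and 5 fell after radiation, and 3 rose and 4 fell with both. The rhythmic zinc finger gene Klf9 fell in all 3 (log2 fold changes -0.50, -0.55 and -0.76, limma adjusted p = 0.000942, 0.00246 and 4.38e-05). So did Tsc22d3, a glucocorticoid target (-1.26, -0.49 and -1.12, limma adjusted p = 1.54e-06, 0.00438 and 2.76e-06), and the deacetylase gene Sirt1 (-0.28, -0.27 and -0.51, limma adjusted p = 0.0117, 0.0342 and 0.000268). The cell cycle inhibitor gene Cdkn1a (-0.63, limma adjusted p = 0.00177) and Klf10 (-0.54, 0.00533) fell with nintedanib. The Sirt1 call after radiation was lost in 8 of 13 other settings, including without any 1 control and without the second or the third radiation library, and its call with nintedanib after rescaling to a common sum.

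Of 12 input genes tested, 3 rose and 3 fell with nintedanib, 0 rose and 4 fell after radiation, and 2 rose and 5 fell with both. Tsc22d3 is counted among the outputs and again here. The glucocorticoid receptor gene Nr3c1 and the input genes Fkbp5 and Sgk1 passed in no comparison with control. Their log2 fold changes with nintedanib were 0.10, -0.17 and -0.01. Dusp1, a phosphatase of MAP kinases, was at 40.8 ± 2.69 FPKM in controls and rose with nintedanib to 128 ± 1.74 FPKM (SD, n = 3; 1.63 on the log2 scale, limma adjusted p = 1.45e-07). By limma the cAMP responsive genes Crem (0.51, adjusted p = 0.00115) and Sik1 (0.29, 0.0388) rose, and Errfi1 (-0.94, 2.46e-06) and the CREB coactivator gene Crtc2 (-0.22, 0.00615) fell. The Crtc2 call was lost after rescaling to a common sum and by voom. The Sik1 call was lost in 7 of 13 other settings, 4 of them the omission of the second or the third control or of the first or the second nintedanib library.

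The genes most like Dbp were sought among 7383 protein-coding genes with a mean of at least 5 FPKM. Likeness was the root mean square difference from Dbp over the 12 libraries, after each gene's control mean on the log2(FPKM + 1) scale was taken off, and is a description. The nearest 5 were Gas1 (0.275), Krt80 (0.286), Anxa3 (0.289), Marveld1 (0.294) and Chst1 (0.312), beside a median of 0.626 over all candidates. Krt80, an epithelial keratin gene, went from 20.48 FPKM in controls to 32.4 with nintedanib, 9.90 after radiation and 21.4 with both. Anxa3, a membrane-binding annexin gene, was at 158, 226, 94.6 and 158 FPKM in the same order. Gas1 was at 17.2, 24.2, 11.3 and 12.7 FPKM.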

How the data were processed

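The authors deposited FPKM values for 54532 genes in 12 libraries, with coordinates, strand and gene model lengths, per the file headers. The submitters' processing notes name GRCm38 (mm10). For the aligner, counting tool, annotation release and strand setting: not given in the sources used here. FPKM times gene length gave whole fragments for 100% of nonzero values in every library (tolerance 0.01 of a fragment).

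The 10 genes and all lists were chosen with earlier results of these data known. Values as log2(FPKM + 1) were fitted with limma 3.58.1 in R 4.3.3 (trend, two-sided) to 4 group means, which left 8 residual degrees of freedom, for the 13012 genes at 1 FPKM or more in at least 3 libraries. Benjamini-Hochberg adjustment ran over all of them, separately for the 6 comparisons. This scale understates the changes of low genes. The fit was tested on simulated data. Groups came from the treatment labels. The text names the 11 further core clock genes except 1 that is not reported here, at most 5 called genes of each other list, and the 5 genes most like Dbp. Exon overlaps are from GENCODE M21 (GRCm38). Alternatives were a pseudocount of 0.1, no filter, FPKM rescaled to a common sum or by median ratio, fits of only the groups compared, voom on recovered fragments, a replicate block, and leaving out each library.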

Additional observations from a re-analysis of the deposited data

How the results depend on the processing

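Of 830 log2 fold changes of the 10 clock genes under other settings, 805 stayed within 1 SD of the reported value and 25 moved further. That count is no measure of stability, as leaving out 1 of 3 libraries cannot move a group mean by 1 SD. No filter, fits of only the groups compared and the replicate block leave the fold change itself unchanged. Among called fold changes 0 reversed. Some that were not called changed sign, as for Dbp with both treatments against control (-0.11, from -0.23 to 0.02 over other settings). Of 793 values for the calls of other clock genes, 78 were no longer past the threshold and 0 reversed. Replicate numbers did not pair the libraries: deviations of same-numbered libraries correlated at -0.298 to 0.202 over 18 pairs, 3 of them over 0.1, and 3 of 12 libraries correlated best with their own number.

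Without 1 library, genes called after radiation numbered 1145 to 1578 (2334 reported), the other clock genes among them 9 to 15, and the 10 genes described 2 to 4. With the FPKM rescaled to a common sum, 2 of the 10 were called after radiation. For both treatments against radiation alone, 15 other clock genes were called with no filter (23 reported). For both treatments against nintedanib alone (722 genes reported), 43 genes were called when only the groups compared were fitted, 444 with the replicate block, and 269 to 652 without 1 library. There, other clock genes called numbered 3 with no filter, 3 after rescaling to a common sum, 0 with only the groups compared, and 1 to 7 without 1 library (5 reported). Of the 10 genes, 4 reported, 0 were called with no filter, with only the groups compared and with the replicate block, 1 after rescaling to a common sum, and 0 to 3 without 1 library. The interaction held 1 gene, against 0 at a pseudocount of 0.1, 12 with no filter, 4 after rescaling to a common sum, 2 by voom, 0 with the replicate block, and 0 to 5 without 1 library. Rescaling to a common sum moved the median interaction of all genes from 0.01 to -0.10, and the share of higher calls from 47.2% to 60.0% with nintedanib and from 44.8% to 69.7% after radiation, which voom gave as 59.6%. FPKM sums were 268411 to 315358. The short RNA gene Gm23935 alone was at 610 FPKM in the third nintedanib library and at 12846 to 32372 FPKM in the others. Its part in the rescaled results was not tested. Depth limited Per2, at 182 fragments in its lowest library, Bhlhe41 at 161, Dbp at 138, Nr4a2 at 124, Crem at 82, Ciart at 59 and Fbxl21 at 54.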
